A study of Rattus norvegicus with 10 samples.

Results

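Hcrt, Pmch and Cartpt are 3 neuropeptide genes of the lateral hypothalamus, and they were read in the hypothalamus of 10 rats raised on feed of 2 textures. Every probe set that the annotation of the Affymetrix rat genome array assigns to 1 of these genes alone was taken. This gave 1 probe set each, 1387163_at for Hcrt, 1368802_at for Pmch and 1368585_at for Cartpt, so they make up 3 of the 14217 genes that the array names alone. All 3 entered every test over the 31042 probe sets, since no filter on low values was set. They are among the genes that the study itself singled out from its calls on these same rats, so a call here is not independent evidence of a diet effect.

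The animals were male Wistar rats, 3 weeks old at the start. All 10 ate powdered feed for 2 days of acclimatization. The P group (5 rats) then stayed on powdered feed and the C group (5 rats) was moved to solid chow. Both feeds were given for 8 days, up to an age of 4 weeks. Cages, bedding and water supply were meant to keep chewing to feeding. The comparison therefore sets rats that chewed solid feed against rats kept on the texture they had been acclimatized to. Total hypothalamic RNA of each rat was hybridised to 1 array, and rats are named here Chow 1 to 5 and Powder 1 to 5 by their labels. The values are log2 signals summarised from the probes of a set. Pairwise correlations between the 10 arrays lay between 0.9970 and 0.9991. The summary left 92.6% of the probe sets almost flat over the rats, with a standard deviation (SD) below 0.001, and 4.48% varied with an SD above 0.1. All 7 measured transcription factor genes of a list of 10 for hypothalamic identity, such as Nkx2-1 and Otp, had an SD below 0.1, and 6 of them were flat, so they give no reading of how much hypothalamus each piece held.

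Orexin, the product of Hcrt (hypocretin), and melanin-concentrating hormone (MCH), the product of Pmch, are made by separate, intermingled sets of neurons in the lateral hypothalamus and the adjoining zona incerta. Orexin neurons are known for keeping the animal awake, driving feeding and raising sympathetic outflow, and narcolepsy follows their loss. MCH neurons are known for promoting sleep and feeding. Cartpt encodes the precursor of the cocaine- and amphetamine-regulated transcript (CART) peptides. It is expressed with Pmch in many MCH neurons, and also in the arcuate and paraventricular nuclei and elsewhere in the hypothalamus, so its signal in whole tissue has several sources. In RNA of a whole tissue piece, fewer cells of a type and less RNA per cell cannot be told apart.

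Promoter windows, reaching from 250 bases before to 50 bases after the annotated start, were held for Hcrt and Cartpt in the RefSeq table for the GRCr8 build; Pmch had none there. They were searched on both strands for the TATA box letters TATAAA, the palindromic cAMP response element TGACGTCA, to which CREB binds, and the E-box CACGTG. Both genes lie on the minus strand. The stretches below are shown because each holds the 1 match found in its window, and the capitals mark it.
Hcrt, chr10:86191525-86191624, bases -100 to -1 before the start: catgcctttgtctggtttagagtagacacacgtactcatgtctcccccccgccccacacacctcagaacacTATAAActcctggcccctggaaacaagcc
Cartpt, chr2:32991359-32991388, bases -153 to -124 before the start: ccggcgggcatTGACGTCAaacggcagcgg
The TATA box letters of Hcrt lie at -29 to -24, and 14.2% of the 33469 promoter windows in the table hold them. The cAMP response element of Cartpt lies at -142 to -135 and is held by 1.83% of the windows. CACGTG, which 6.42% of the windows hold, is in neither. The Cartpt window lies within the annotated span of the gene, of which a longer model starts further upstream. A match of letters is a description of the window and was not set against any reading of binding.

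Hcrt had log2 signals of 9.94, 10.76, 10.95, 10.88 and 10.57 in Chow 1 to 5. In Powder 1 to 5 it had 10.89, 10.94, 10.79, 10.96 and 10.68. Chow 1 stood far below the rest, Chow 5 was the second lowest of the 10, and Chow 2, 3 and 4 lay among the powder rats. The mean log2 signal was 10.62 ± 0.41 (SD, n = 5) in the C group and 10.85 ± 0.12 (SD, n = 5) in the P group. Of the 5 chow rats, 3 were below the mean of the P group and 2 below every powder rat. The span from lowest to highest was 1.02 log2 units for the chow rats and 0.28 for the powder rats.

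Pmch had log2 signals of 12.44, 13.05, 12.98, 13.07 and 12.79 in Chow 1 to 5. In Powder 1 to 5 it had 13.07, 13.07, 13.06, 13.15 and 13.04. Chow 1 was again lowest and Chow 5 second lowest, while the powder rats were close together, with Powder 4 apart at the top. The means were 12.87 ± 0.26 (SD, n = 5) in the C group and 13.08 ± 0.044 (SD, n = 5) in the P group. All 5 chow rats lay below the mean of the P group, and 3 of them, Chow 1, 3 and 5, below every powder rat. The spans were 0.63 log2 units for the chow rats and 0.11 for the powder rats.

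Cartpt had log2 signals of 10.97, 11.02, 11.11, 11.24 and 11.11 in Chow 1 to 5. In Powder 1 to 5 it had 11.18, 11.29, 11.17, 11.19 and 11.12. Chow 1 was lowest here too, but by less, followed by Chow 2, and Chow 4 was the second highest of all 10 rats. The means were 11.09 ± 0.10 (SD, n = 5) in the C group and 11.19 ± 0.062 (SD, n = 5) in the P group. The groups overlapped only through Chow 4: the other 4 chow rats lay below every powder rat, Chow 3 and Chow 5 by a narrow margin. Signals of different probe sets depend on their probes, so the 3 levels were not ranked against each other.

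**Figure D1:**
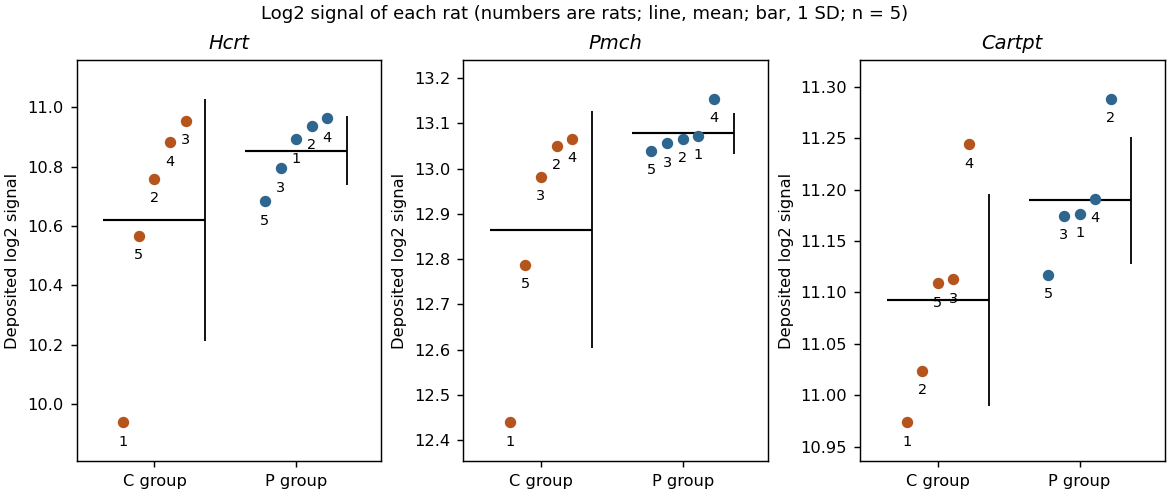
Log2 signal (vertical axes, separate scales) of Hcrt, Pmch and Cartpt in each rat of the C group (orange) and the P group (blue), with the rat's number, the group mean as a line and 1 SD as a bar (n = 5 rats). Chow 1 is the lowest of the 10 rats in each panel, at 9.94, 12.44 and 10.97, and the powder rats span 0.28, 0.11 and 0.17.

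The question of the diet comparison was whether chewing solid feed alters hypothalamic transcripts. The mean difference, C group minus P group on the log2 scale, was -0.23 for Hcrt (standard error, SE, 0.18; 95% interval -0.65 to 0.18). It was -0.21 for Pmch (SE 0.11; interval -0.47 to 0.05) and -0.10 for Cartpt (SE 0.052; interval -0.22 to 0.02). As ratios of C over P these are 0.850, 0.863 and 0.935. The 3 point estimates were thus below 0, and each interval included 0.

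The rank products method, which the study used, called all 3 genes lower in the C group, with an estimated false discovery rate (FDR) of 0.00309 for Hcrt, 0.00214 for Pmch and 0.0121 for Cartpt. It ranks the fold changes of all probe sets within each of the 25 pairs of a chow and a powder rat, and a probe set is called at an FDR below 0.05. Over the whole array it called 253 of 31042 probe sets lower, 0.815%, and 293 higher, 0.944%, with 2 called both ways. The flat probe sets are ranked too. Among the 1460 probe sets that varied over the rats at least as much as Cartpt, 14.7% were called lower and 19.7% higher. The median difference was -0.21 for the 3 genes, 0.027 for these 1460 and -2.7e-06 for all probe sets.

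The linear model (limma), which measures a difference against the spread between rats, called none of the 3, with an adjusted p of 0.9995 for each (unadjusted 0.235, 0.0992 and 0.0966). It called 0 of 31042 probe sets in either direction, 0.0%, with a smallest adjusted p of 0.986 and 1100 probe sets at an unadjusted p under the threshold of 0.05. Two-sided exact permutation tests over the 252 ways of dividing the rats gave an unadjusted p of 0.254 for Hcrt, 0.0635 for Pmch and 0.103 for Cartpt, where the design can reach 0.00794. The rank product calls of Hcrt and Pmch ended when only the varying probe sets (SD above 0.1) were ranked, with an FDR of 0.975 and of 1, and Cartpt, with an SD of 0.095, was not among those. Ranking by rank sums, or after dividing each fold change by the spread within the groups, ended all 3.

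The size of the difference depended most on Chow 1 for Hcrt and Pmch. That rat lay 0.85 log2 units under the mean of the other 4 chow rats in Hcrt, a ratio of 0.554. In Pmch the gap was 0.53, a ratio of 0.692, and in Cartpt 0.15, a ratio of 0.902. Without Chow 1 the difference was -0.06 for Hcrt (a ratio of 0.957), -0.11 for Pmch (0.929) and -0.07 for Cartpt (0.955). For Cartpt the shift was larger without Chow 4, where the difference was -0.13.

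Hcrt lost its rank product call without Chow 1, at an FDR of 0.119, and kept it when any other rat was left out. Pmch kept its call with each of the 10 rats left out in turn, at FDRs up to 0.0296. Cartpt kept its call without Chow 1 and lost it without Powder 2, its highest rat, at an FDR of 0.0853. By the exact permutation test Pmch passed 0.05, unadjusted, when Chow 2 (p = 0.0317) or Chow 4 (p = 0.0159) was left out, and Cartpt when Chow 4 was left out (p = 0.0159). In none of these 10 settings did the sign of a mean difference turn.

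**Figure D2:**
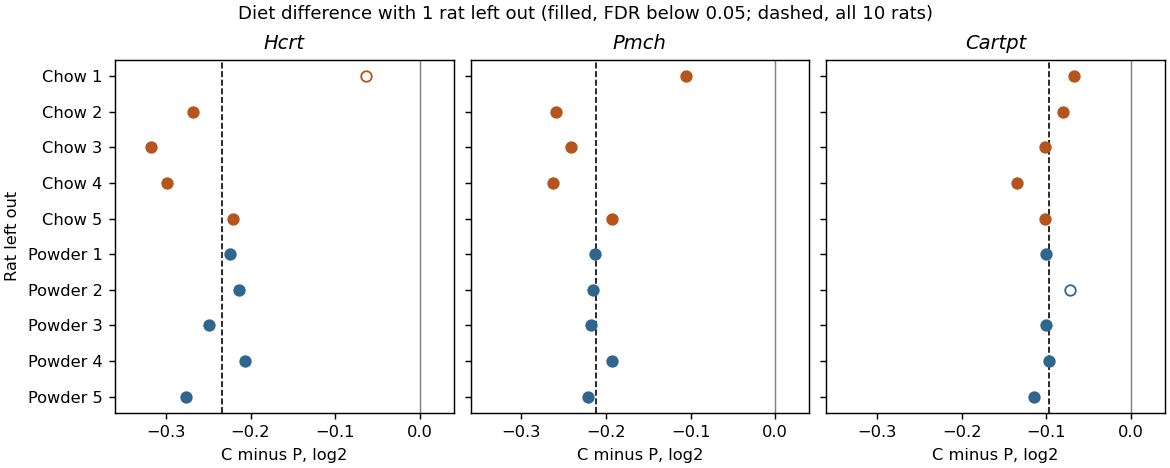
Mean log2 difference, C minus P (horizontal axes), of Hcrt, Pmch and Cartpt with the rat named on the vertical axis left out; filled points have a rank product FDR below 0.05, open points do not, orange marks chow rats, blue powder rats, and the dashed line the value over all 10 rats. Hcrt moves from -0.23 to -0.06 and opens without Chow 1, Cartpt opens without Powder 2, and Pmch stays filled throughout.

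Chow 1 also stood apart in markers of cortex and hippocampus, which lie outside the hypothalamus. Slc17a7, the vesicular glutamate transporter of cortical and hippocampal neurons, had a log2 signal of 8.05 in Chow 1, 6.62 to 6.91 in the other chow rats and 6.66 to 6.79 in the powder rats. Of the 10 cortex and hippocampus markers listed, 9 were measured and 4 of these varied. The score over those 4, their mean deviation from the mean of the 10 rats, was 0.78 in Chow 1, -0.09 to -0.03 in the other chow rats and -0.33 to -0.02 in the powder rats. The summed linear signal of the 9 was 2425 to 3226 in the C group, highest in Chow 1, and 2367 to 2463 in the P group. None of the 9 is listed at 0, and the other 5 (Neurod1, Neurod2, Tbr1, Emx1 and Nrn1) were flat.

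The astrocyte score, over 4 varying markers of 7 measured, was 0.21 in Chow 1. It was -0.05 to 0.06 in the other chow rats and -0.11 to -0.01 in the powder rats. The summed signal of the 7 was 23979 to 25600 in the C group and 23590 to 24449 in the P group. Of the 4, Gfap (11.25) and Aldh1l1 (8.96) were highest in Chow 1 of the 10 rats. Aqp4 was 12.536 in Chow 1 and up to 12.540 in the other chow rats, and Slc1a3 11.87 and up to 11.95. S100b, outside the score, was 12.75 in Chow 1 and 12.78 to 12.87 in the powder rats. The score over all 13 leptomeningeal markers, genes of the fibroblasts that cover the brain, was highest in Chow 1 (0.82) and Chow 4 (0.66). Chow 2, 3 and 5 had -0.19, -0.42 and -0.20, and the P group ranged from -0.70 to 0.42. Their summed signal was 6802 to 18396 in the C group and 5422 to 14752 in the P group. The thalamus and striatum scores of Chow 1, -0.12 and 0.03, lay within the range of the other rats. The striatum score averages 2 varying genes that ran opposite ways in Chow 1. Drd1 was highest there, at 7.79 against 7.29 to 7.58 in the other chow rats and 7.37 to 7.49 in the powder rats. Drd2 was lowest, at 7.50 against 7.74 to 7.94 and 7.62 to 7.93. Of the 3 varying thalamus genes, Cbln1 was lowest in Chow 1, at 9.52 against 9.66 to 9.93 and 9.74 to 9.88. Tnnt1 and Gbx2 lay within the range of the other rats. The choroid plexus score of Chow 1, over 1 varying marker, was 1.23, below the 1.44 of Chow 3. Chow 5, the second lowest rat in Hcrt and Pmch, had a cortex and hippocampus score of -0.04, an astrocyte score of 0.06, the highest after Chow 1, and the lowest oligodendrocyte score of the 10 rats, -0.22.

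Rank products called 2 cortex and hippocampus markers (Slc17a7 and Nrgn), 2 astrocyte markers (Gfap and Aqp4) and all 13 leptomeningeal markers higher in the C group, beside the 3 peptide genes called lower. Without Chow 1 the counts were 0, 0 and 4, and 1 leptomeningeal marker, Ptgds, was then called lower. Other marker lists had calls as well. Cga and Tshb (pituitary list), Hbb and Alas2 (erythrocytes) and Ttr (choroid plexus) were called higher, and Tnnt1 (thalamus) lower. Without Chow 1 all of these but Hbb kept their calls, and Ttr was called both ways. No gene of the hypothalamus identity, striatum, oligodendrocyte and microglia lists was called. Array shares were 0.815% lower and 0.944% higher, or 14.7% and 19.7% among probe sets varying at least as much as Cartpt.

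With the cortex and hippocampus score as a covariate in the linear model, the difference was -0.03 for Hcrt (SE 0.097), -0.09 for Pmch (SE 0.071) and -0.06 for Cartpt (SE 0.050). The score rests largely on Chow 1, so these values and those without Chow 1 come from much the same information. With the leptomeningeal score the differences were -0.16, -0.17 and -0.10. The part of neighbouring tissue in the result was not tested.

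The 3 genes varied together over the 10 rats. Hcrt and Pmch had a Pearson r of 0.94 (permutation p = 0.00349, adjusted over the 3 pairs 0.0105) and a Spearman rho of 0.71 (permutation p = 0.0267, adjusted 0.0342). Hcrt and Cartpt had an r of 0.74 (permutation p = 0.0086, adjusted 0.0129) and a rho of 0.68 (permutation p = 0.0342, adjusted 0.0342). Pmch and Cartpt had an r of 0.68 (permutation p = 0.0247, adjusted 0.0247) and a rho of 0.82 (permutation p = 0.00581, adjusted 0.0174). All 3 pairs passed by either measure, the first most closely along a line.

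By Pearson r these relations rested on Chow 1: all 3 calls of r ended without it and held without any 1 of the other 9 rats. Chow 1 and Chow 5 were the 2 rats farthest from the median of Hcrt and of Pmch, and without both r was 0.24 for Hcrt and Pmch (permutation p = 0.575), 0.54 for Hcrt and Cartpt (p = 0.171) and 0.37 for Pmch and Cartpt (p = 0.355), over 8 rats. Without Chow 1 alone r was 0.71 (permutation p = 0.0315), 0.54 (p = 0.139) and 0.37 (p = 0.321), with adjusted permutation p of 0.0944, 0.208 and 0.321. The rho without Chow 1 was 0.60, 0.57 and 0.75 and was not tested, so the dependence is shown for r alone. Leaving out Chow 5 as well thus lowered r for Hcrt and Pmch, from 0.71 to 0.24, and hardly moved it for the pairs with Cartpt. With each rat taken relative to its diet group r was 0.94 (adjusted permutation p = 0.00183), 0.68 (0.0508) and 0.56 (0.101), so the calls of both pairs with Cartpt ended there. Each group holds 5 rats, too few for a relation of its own. As a description, r was 0.96, 0.70 and 0.64 within the C group and 0.73, 0.74 and 0.19 within the P group.

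**Figure D3:**
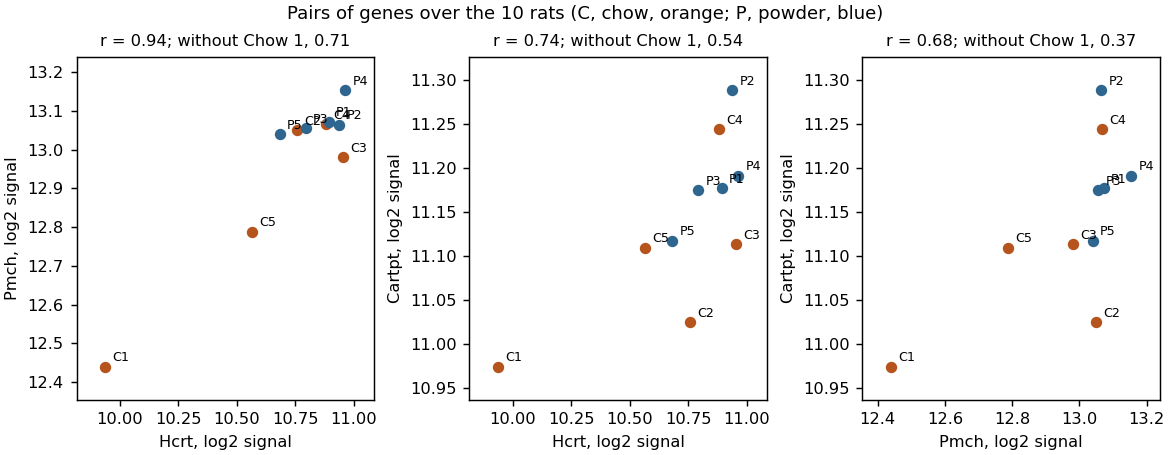
Log2 signals of the 3 pairs of genes in each rat (C, chow, orange; P, powder, blue; 1 point per rat, n = 10), with Pearson r over all rats and without Chow 1 above each panel. Chow 1 lies at the lower left in each panel, and r falls from 0.94 to 0.71, from 0.74 to 0.54 and from 0.68 to 0.37 without it.

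Among all probe sets, 201 (0.648%) had a larger SD over the 10 rats than Hcrt (0.308), 448 (1.44%) a larger SD than Pmch (0.210) and 1459 (4.70%) a larger SD than Cartpt (0.095). These places rested on Chow 1 for Hcrt and Pmch: without it their SDs were 0.136 and 0.101, with 2.81% and 4.01% of the probe sets above them, while that of Cartpt was 0.079, with 4.89% above.

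The genes whose signals ran most like each of the 3 were sought by Pearson r over the 10 rats among 1013 varying probe sets that name a single gene, 899 genes in all. For Hcrt they were Slc43a2, an amino acid transporter (r = 0.92), Nts, which encodes neurotensin (0.91), Ncs1, a neuronal calcium sensor (0.88), Sst, which encodes somatostatin (0.82), and Phlda3 (0.82). For Pmch they were Ncs1 (0.96), Nts (0.94), Slc43a2 (0.91), Phlda3 (0.87) and Edem1, of protein quality control in the endoplasmic reticulum (0.86). The lists for Hcrt and Pmch thus share 4 of their 5 genes. For Cartpt the values were lower: Slc43a2 (0.68), Drc12 (0.66), the mitochondrial kinase gene Dguok (0.66), the transcription factor gene Sp1 (0.65) and Ngb, which encodes neuroglobin (0.62).

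Genes running opposite to Hcrt were LOC102547703 (r = -0.98), Slc17a7 (-0.94) and Mlip (-0.92). Opposite to Pmch were Rprm (-0.97), LOC102547703 (-0.96) and Bcl11a, a transcription factor gene of cortical neurons (-0.95). Opposite to Cartpt were LOC102547703 (-0.74), Lzts1 (-0.74) and Slc17a7 (-0.72). An r below -0.8 was found for 52 probe sets against Hcrt and 69 against Pmch, an r above 0.8 for 8 and 9, and neither for Cartpt, so opposite runs were the more frequent kind for the first pair.

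Chow 1 carried much of this likeness. Without it, r to Hcrt was 0.80 for Slc43a2, 0.47 for Nts, 0.55 for Ncs1, 0.66 for Sst and 0.24 for Phlda3, and -0.56 for Slc17a7. To Pmch it was 0.87 for Ncs1, 0.69 for Nts, 0.74 for Slc43a2, 0.49 for Phlda3 and 0.20 for Edem1. LOC102547703 kept -0.86 to Hcrt and -0.81 to Pmch, and Rprm kept -0.85 to Pmch. These correlations share the same 10 arrays and carry no test.

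**Figure D4:**
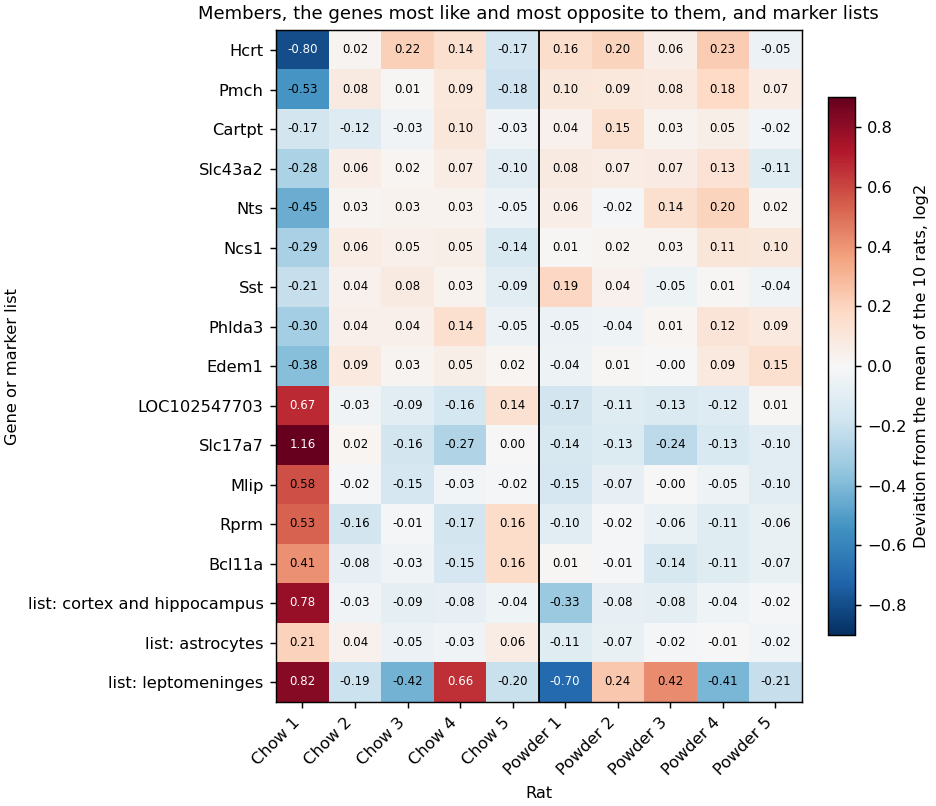
Deviation from the mean of the 10 rats (log2, number and colour; colours reach their limit at the ends of the bar) for Hcrt, Pmch and Cartpt, for the genes most like and most opposite to Hcrt and Pmch, and for the scores of 3 marker lists, with rats in columns and a line between the diets. The column of Chow 1 holds the lowest value of Hcrt, -0.80, and of Pmch, -0.53, and the highest of Slc17a7, 1.16, and of the cortex and hippocampus score, 0.78.

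Scores of 10 marker and gene lists with more than 1 varying gene were set against each of the 3 genes, 30 relations in all, and 0 passed after adjustment over the 30 (smallest adjusted permutation p of r 0.0738; 6 had an unadjusted p of r under 0.05). That smallest was Hcrt against the astrocyte score, with r = -0.91 and rho = -0.65. It was -0.69 without Chow 1 and -0.75 without the 2 rats farthest in the score. Hcrt against the cortex and hippocampus score had r = -0.91 (permutation p = 0.0184, adjusted 0.138), rho = -0.60, and r = -0.33 without Chow 1. For Pmch that r was -0.87 (adjusted permutation p = 0.187) and -0.17 without Chow 1, and for Cartpt -0.64 (adjusted permutation p = 0.210) and -0.22.

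The receptors gave no reading of variation. Hcrtr1 and Hcrtr2, the orexin receptors, and Mchr1, the receptor of MCH in rodents, had mean log2 signals of 7.72, 8.20 and 7.08 in both groups and were flat, and 0 of the 3 were called by rank products or by limma (0 at an unadjusted limma p under 0.05). Their differences lay between -0.00012 and 5.6e-05.

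Genes that process neuropeptides or build their granules were listed as 16, of which 15 were measured. Rank products called 2 lower in the C group, 0 higher and left 13 uncalled, and 10 of the 15 were flat, among them Pcsk2, Cpe and Pam, which cleave and amidate precursors. The 2 were Qpct, the enzyme that forms the pyroglutamate at the start of peptides such as orexin-A (difference -0.10, SE 0.09, FDR 0.0146), and Vgf, a granin-like precursor (difference -0.08, SE 0.033, FDR 0.0174). Without Chow 1 neither was called (FDRs of 0.0641 and 0.0538), and without Powder 1 or Powder 5 the count was also 0. The r of Vgf was 0.67 to Hcrt and 0.66 to Pmch, and -0.12 and -0.10 without Chow 1. The median difference of the 15 was -3.1e-05. Over the whole array 0.815% of the probe sets were called lower and 0.944% higher. Among those varying at least as much as Cartpt the shares were 14.7% and 19.7%.

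Of 11 genes listed for neurons of the lateral hypothalamus, 9 were measured, 4 varied with an SD above 0.1 and 3 were flat. Rank products called 2 lower, 0 higher and left 7 uncalled, with a median difference of -0.002. Shares over the array were 0.815% lower and 0.944% higher, and 14.7% and 19.7% among probe sets varying at least as much as Cartpt. Nts, neurotensin, which many lateral hypothalamic neurons make, was called lower (difference -0.16, SE 0.097, FDR 0.0088), but not without Chow 1 (FDR 0.0892). No gene of the list was called without Powder 1. Gad1, the main enzyme of GABA synthesis, was called lower with and without Chow 1 (difference -0.09, SE 0.071, FDR 0.0382). Pdyn, the dynorphin precursor that orexin neurons also express, differed by -0.04 (SE 0.044), and Gal, galanin, by -0.04 (SE 0.071). Lhx9, a transcription factor gene of orexin neurons, had a log2 signal of 7.34 in Chow 1, where Hcrt was lowest, against 6.80 to 6.88 in the other chow rats and 6.75 to 7.18 in the powder rats. Its r to Hcrt was -0.67, and 0.09 without Chow 1. Its difference was -0.002 (SE 0.12) over all rats and not called, and -0.10 without Chow 1, called lower with an FDR of 0.0211.

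Peptides of the medial hypothalamus gave 4 genes called lower, 2 higher and 4 uncalled of 10 measured among 12 listed, 2 of them flat, with a median difference of -0.03. Oxt, oxytocin, differed by -0.25 (SE 0.11, FDR 0.000909), Crh, corticotropin-releasing hormone, by -0.18 (SE 0.16, FDR 0.00423), Avp, vasopressin, by -0.13 (SE 0.22, FDR 0.0157), and Trh, thyrotropin-releasing hormone, by -0.09 (SE 0.082, FDR 0.0393). Their lowest rat was not always the same: Avp was highest of the chow rats in Chow 1, at 12.33 against 11.32 to 12.04 in the other 4, where the 3 lateral genes were lowest. Vip differed by 0.60 (SE 0.40) and Adcyap1, which encodes the peptide PACAP, by 0.09 (SE 0.059, FDR 0.0376), both called higher. Npy, neuropeptide Y, was not called (difference 0.10, SE 0.081), and its r was -0.84 to Hcrt and -0.92 to Pmch (-0.65 and -0.89 without Chow 1), with 9.98 in Chow 1 and 9.58 to 9.91 in the other chow rats. Without Chow 1 the call of Trh ended (difference -0.04, FDR 0.157), that of Adcyap1 ended (FDR 0.101), and the differences were -0.26 for Avp, -0.11 for Crh and 0.04 for Npy. Only 1 gene was called lower without Powder 1 or without Powder 5, and 2 without Chow 4 or without Powder 2. Limma called 0 genes of these lists, and 1 in each of the last 3 lists had an unadjusted p under 0.05. The study picked Oxt, Crh, Avp and Trh from its calls on these rats as well. Rank product shares beside these counts were 0.815% lower and 0.944% higher over the array. They were 14.7% and 19.7% among probe sets varying at least as much as Cartpt.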

How the data were processed

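Hypothalamic RNA of 10 rats was read on 1 Affymetrix array each. The authors summarised the scans by factor analysis (FARMS) under R 2.7.2 and deposited log2 signals. This summary leaves a probe set flat where its probes show no shared variation over the arrays. A flat probe set can have a high signal: Cpe was flat at a mean log2 signal of 13.28 in both groups. The number of arrays limits the precision. Replicates are separate rats.

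Columns were joined to rats by their identifiers, with 0 left unmapped. Of 31099 probe sets, 57 hybridization controls were dropped. Of the rest, 20826 name 1 gene, 436 several and 9780 none, and the gene identifiers of all 3 genes are in the reference gene table. The members and gene lists were chosen with earlier results of these data known, and the tests and alternatives were taken from an earlier treatment of the series.

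Rank products (25 pairs of rats, 100 permutations within arrays, FDR capped at 1), exact permutation tests and correlations (100000 resamples, two-sided, Benjamini-Hochberg over the 3 pairs) ran under Python 3.11.15 (numpy 2.4.6, pandas 2.3.3, scipy 1.17.1) and were drawn with matplotlib 3.10.9. Limma 3.58.1 in R 4.3.3 fitted log2 values with Benjamini-Hochberg adjustment over 31042 probe sets. Rank products and limma were tried on simulated arrays with independent noise and no outlying rat. The unpaired exact test and r were checked on simple made-up values. The permutation p of correlations and the paired exact test were not checked in this way.

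The 15 lists (4 of pathways, 11 of markers) hold 130 entries, of which 114 were measured, each by its probe set of highest mean. Genes named were the 3 members, the 3 receptors, the called genes and up to 4 of the largest differences per pathway list, and for each member the 5 most like and 3 most opposite genes (SD above 0.1). Lhx9, Npy, Slc17a7 and the medial peptides in their relation to Chow 1 were described after their values were seen. The authors' methods gave the rank products and the threshold. Alternatives were other filters, scalings, rank statistics, variance models, array weights, marker covariates, a replicate block, a threshold of 0.01, and the omission of single rats or of Chow 1 and 4 together.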

Additional observations from a re-analysis of the deposited data

Results flagged for a closer look

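In groups of 5 rats, a rat was noted where its gap to the nearest other rat exceeded 0.71 of the group's range. This held in 11 of 62 groups over 31 genes. Chance gives about 1 in 20 for genes picked blindly, but many of these 31 were picked for running with or against Hcrt, Pmch or Cartpt over the same rats, where Chow 1 is extreme, so the count cannot be read against that rate. Among the 3 lateral hypothalamic peptides it held once: Pmch in Powder 4 had a log2 signal of 13.154, above the other powder rats. The low values of Chow 1 in Hcrt, Pmch and Cartpt did not reach the limit, since Chow 5 or Chow 2 lay between it and the rest.

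Of the 11, 7 were in Chow 1. That rat was lowest of the C group in Nts, at 8.535, and Edem1, at 7.7408. It was highest in Slc17a7 at 8.0515, Mlip at 7.1186, Lzts1 at 8.531, Bhlhe22 at 8.3767 and Nrgn at 9.9735. Slc17a7, Bhlhe22 and Nrgn are on the list of cortex and hippocampus markers. The 7 genes were measured in 1 piece of tissue and are not independent of each other.

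In the P group, Powder 1 was lowest in Adcyap1, at 9.6602, and in Neurod6, at 6.2178, and Powder 5 was lowest in Slc43a2, at 7.7937.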

How the results depend on the processing

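Rank product FDRs over all rats were 0.00309 (Hcrt), 0.00214 (Pmch) and 0.0121 (Cartpt, which misses a threshold of 0.01). Ranking varying probe sets alone gave 0.975 and 1 for Hcrt and Pmch (Cartpt was not ranked), rank sums gave 1 for all 3, and scaling by the spread gave 1, 0.985 and 0.961. Without Chow 1 and Chow 4 Hcrt had 0.103. Leaving out each rat gave 0.00167 to 0.119 for Hcrt, 0.000769 to 0.0296 for Pmch and 0.00304 to 0.0853 for Cartpt. With 1 rat left out, limma differences ranged from -0.32 to -0.06, -0.26 to -0.11 and -0.13 to -0.07; the cortex and hippocampus covariate gave -0.03, -0.09 and -0.06, and array weights, lowest for Chow 1, gave -0.06, -0.13 and -0.09. No setting of limma called any. Exact permutation p ranged, with 1 rat left out, over 0.0794 to 0.524, 0.0159 to 0.230 and 0.0159 to 0.206, and for Pmch was 0.0397 after quantile normalization and 0.0357 without Chow 1 and Chow 4. The r of Hcrt and Pmch, Hcrt and Cartpt, and Pmch and Cartpt ranged over 0.71 to 0.97, 0.54 to 0.83 and 0.37 to 0.83 with 1 rat left out. It was 0.71, 0.53 and 0.35 without Chow 1 and Chow 4, 0.24, 0.54 and 0.37 without the 2 farthest rats, and 0.68 and 0.56 for the pairs with Cartpt centred within diets. No direction turned, and the causes were not tested.

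Rank product calls over the array, 253 lower and 293 higher, became 4 and 1 among varying probe sets, 6 and 1 by rank sums and 0 by limma; calls in the lists then were 0. Without Chow 1 and Chow 4 there were 46 higher calls over the array, 0 lower in the granule list, 1 in the lateral list and 2 in the medial list, with 1 higher. Leaving out each rat gave 121 to 322 lower calls and 114 to 352 higher. Lower calls were 138, 127, 157 and 121 without Powder 1, 2, 4 and 5, and higher calls 114, 126 and 164 without Chow 1, Chow 4 and Powder 1. It gave 0 to 2 lower in the granule list, 0 to 4 in the lateral list, 1 to 4 in the medial list and 1 to 2 higher there.

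The deviations of same-numbered rats from their group means had r from -0.33 to 0.28. The labels do not say whether the numbers pair the rats, and 5 such values cannot settle it. With a replicate block limma gave the same differences of -0.23, -0.21 and -0.10 (adjusted p 0.995), and the exact permutation p over the 5 pairs was 0.25, 0.0625 and 0.188, where 0.0625 is the smallest possible.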
